A study of Homo sapiens with 3 samples.

Results

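MYC, its partner MAX and the proteins that compete with MYC for MAX form a small network of transcription factors, described here in the human line HCT116, which comes from a colorectal carcinoma. The members were taken by gene symbol from the deposited expression table: MYC, MYCN, MYCL, MAX, MXD1, MXI1, MXD3, MXD4, MNT and MLX, which are 10 of its 58302 genes. Each symbol matched 1 row, and all 10 were among the 17263 genes left by the filter on low counts. The network was selected on the fold changes of MYC in this same comparison, so the values of the members below are a description and carry no test. The study compared HCT116 cells with an siRNA (a small interfering RNA) to DUOX2, an enzyme that produces hydrogen peroxide at the epithelial surface, with cells given a control siRNA. There was 1 library of cells with siRNA 1, 1 library of cells with siRNA 2 and 1 library of cells with the control siRNA. All 3 libraries were of HCT116, and the labels give no dose, time or separate cultures for any of them, so the spread between the DUOX2 siRNA libraries mixes sequence effects with variation between samples, which may be technical.

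All members are basic helix-loop-helix leucine zipper proteins, which bind DNA as pairs at a short element, the E-box CACGTG. MYC, MYCN and MYCL pair with MAX and activate genes for growth, ribosome assembly and metabolism. MXD1, MXI1, MXD3, MXD4 and MNT also pair with MAX and recruit SIN3 and histone deacetylases, so that they repress many of the genes that MYC activates. MLX joins the network from a second side, since it pairs with MXD1, MXD4 and MNT as well as with the glucose-responsive factors MLXIP and MLXIPL. In colorectal epithelium MYC is a known target of WNT signalling and is commonly raised in tumours.

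The siRNAs are shown because they are the treatment that separates the libraries. The lines give the strand that can pair with the target RNA, 5′ to 3′ as in the labels, with bases 2 to 8, the seed, in capitals.
siRNA 1: aACCACUAuguuguccucctt
siRNA 2: aUGAAGGAucgcaucauggtt
control siRNA: aCGUGACAcguucggagaatt
The opposite strand of siRNA 1 and that of siRNA 2 each matched transcripts of 1 gene in GENCODE 29, DUOX2, over their 19 paired bases, and that of the control siRNA matched 0 genes. No member matched. The target itself, DUOX2, had 2 counts with siRNA 1, 0 counts with siRNA 2 and 2 counts in the control. These are at or under the level of 3 counts (0.157 to 0.171 CPM, counts scaled to the library total), so no difference in DUOX2 was detectable at this depth and it gives no check of the labels.

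The libraries held 19130768 counts with siRNA 1, 18832672 with siRNA 2 and 17589502 in the control, of which the 10 members took between 0.0253% and 0.0349%. Of 8 markers of colorectal epithelium 7 had at least 50 counts in a library, and their summed level was 3284 CPM with siRNA 1, 4870 with siRNA 2 and 5349 in the control. LGALS4, the exception, had 0, 0 and 5 counts. The epithelial markers did not move together. EPCAM had 12181 and 11926 counts with the siRNAs and 7646 in the control, while KRT19 had 6102 and 8563 against 16482. KRT8 and CDH1 had their highest counts with siRNA 2. The library protocol in the labels speaks of retinas, and of the retinal markers SAG, CRX, PDE6B and GNAT1 had 0 counts in every library, while RLBP1 had 76, 104 and 136 with siRNA 1, with siRNA 2 and in the control, and the list summed to 4.81, 6.11 and 8.53 CPM. Of 5 fibroblast markers COL1A2 and DCN, and of 5 blood and endothelial markers PTPRC and PECAM1, had 0 counts in every library. Others had reads, with siRNA 1, with siRNA 2 and in the control. COL1A1 had 39, 57 and 57 counts, CD68 had 17, 32 and 56, and CD3E had 13, 9 and 9. The summed level was 2.30 to 3.75 CPM for the fibroblast markers and 1.57 to 3.87 for the blood and endothelial markers, lowest with siRNA 1 and highest in the control in each list, and the part of these shifts in the members' values was not tested. In a bulk library more cells with a transcript and more transcript per cell cannot be told apart.

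The members did not move as a block. As measured, 5 of 10 were higher with both siRNAs and 5 were lower with both, where 41.9% of the 17263 tested genes were higher with both and 41.6% lower with both. With total count scaling 4 were higher with both, 5 lower with both and 1, MAX, was mixed, at -0.01 with siRNA 2. Of the 10, 3 were at least 2-fold away with both siRNAs, where 9.05% of tested genes were. These were MYC, higher (4% of tested genes were), and MXD3 and MYCN, lower (5.05% of tested genes were). MNT lay just outside that limit and MYCN, which had few counts, just inside it. Over the members the log2 fold changes had a median of -0.00 for siRNA 1 and -0.08 for siRNA 2, against 0.02 and -0.01 over all tested genes. MYC was also 1 of the 10 genes past edgeR's quasi-likelihood test (0.0579% of tested genes, and 0.0174% in the higher direction), which is the contrast that the choice of genes used, so nothing is read from it. Both comparisons share the single control library, so the siRNAs do not give independent fold changes.

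**Figure D1:**
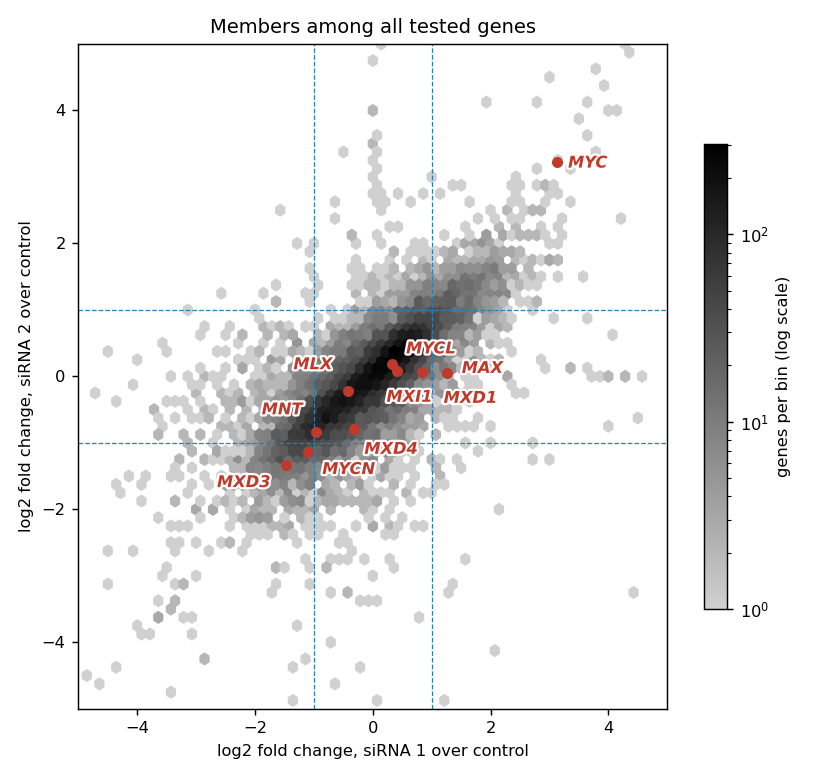
Each member's log2 fold change over the control with siRNA 1 (horizontal axis) and with siRNA 2 (vertical axis) in red, over the 17263 tested genes in grey bins shaded by number of genes; dashed lines mark 2-fold, and 34 genes lie outside the axis limit of 5. MYC stands far from the other members, at 3.13 and 3.22, and MAX is off the diagonal at 1.27 and 0.05.

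MYC itself (ENSG00000136997; chromosome 8, 127735434 to 127741434, plus strand, GRCh38) had 2447 counts with siRNA 1 and 2709 with siRNA 2, against 281 in the control. The siRNA libraries were close to each other and far above the control. The ratio to the control was 8.82 with siRNA 1 (95% exact interval 7.80 to 10.02) and 9.39 with siRNA 2 (8.30 to 10.7), after TMM scaling and with counting error only in the intervals. On the log2 scale the mean of the siRNA libraries was 3.18 ± 0.06 above the control (SD, n = 2 siRNA libraries). Of the tested genes 18 lay above MYC with both siRNAs, 13 of them with at least 50 counts in a library. Nothing is read from this rank, since the network was selected on the fold changes of MYC. No exon of MYC overlaps another annotated gene.

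The other members of the MYC family stayed at low or moderate levels. MYCL, a paralogue first known from lung cancer, had 438 counts with siRNA 1 and 414 with siRNA 2, against 355 in the control. Its ratios of 1.25 (1.08 to 1.44) and 1.14 (0.983 to 1.31) show that the siRNA 2 value is within counting error of the control. MYCN, the paralogue of neural tissue and neuroblastoma, had 4 counts with each siRNA and 11 in the control, and the intervals of both ratios (0.0856 to 1.24 and 0.0823 to 1.20) include 1. Its log2 fold changes of -1.10 and -1.14 therefore rest on few reads and were not distinguishable from 0 at this depth.

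MAX, the obligate partner of MYC, differed between the siRNAs. It had 1106 counts with siRNA 1 and 495 with siRNA 2, against 465 in the control. The siRNA 1 library stood alone, at a ratio of 2.41 (2.16 to 2.69) to the control, while the ratio with siRNA 2 was 1.04 (0.912 to 1.18). Between the siRNAs the ratio was 2.32 (2.09 to 2.59), and 4.36% of tested genes had as large a log2 difference between siRNA 1 and siRNA 2 in either direction. MAX was the member at least 2-fold apart between the siRNAs, as were 6.56% of tested genes, or 3.26% with siRNA 1 the higher. With siRNA 1, MYC and MAX were the members at least 2-fold above the control, as were 8.06% of tested genes. With 1 library per siRNA this difference has no replicate check. A processed copy of MAX on chromosome 7 (AC093107.2) had 1, 0 and 2 counts with siRNA 1, with siRNA 2 and in the control, so it took few reads.

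MXD1, a MAX partner that rises as epithelial cells differentiate, and MXI1, a related antagonist of MYC, followed MAX in direction with smaller differences. MXD1 had 458 counts with siRNA 1 and 278 with siRNA 2, against 259 in the control, with ratios of 1.79 (1.54 to 2.09) and 1.05 (0.879 to 1.24). MXI1 had 787 counts with siRNA 1 and 648 with siRNA 2, against 597 in the control, with ratios of 1.34 (1.20 to 1.49) and 1.06 (0.944 to 1.18). In both genes the siRNA 2 library and the control lay within counting error of each other and the siRNA 1 library above them. MXD1 shares 237 exon bases on its own strand with SNRNP27, a splicing protein gene, which had 443 counts with siRNA 1 and 887 with siRNA 2, against 522 in the control.

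Of the antagonists of MYC, MXD3, MNT and MXD4 were lower with both siRNAs as measured, and for MXD3 and MNT the intervals of both ratios lie below 1. MXD3, which is expressed in proliferating cells, had 182 counts with siRNA 1 and 209 with siRNA 2, against 518 in the control. MNT, the most widely expressed MAX-binding repressor, had 440 counts with siRNA 1 and 499 with siRNA 2, against 873 in the control. For each gene both siRNA libraries lay below the single control library, as they did for 41.6% of tested genes. The ratios were 0.356 (0.299 to 0.422) and 0.393 (0.333 to 0.462) for MXD3 and 0.511 (0.454 to 0.573) and 0.557 (0.498 to 0.622) for MNT. DESeq2 called MXD3 as well as MYC, where it called 3.28% of all tested genes, and nothing is read from this since the choice of genes used the same contrast. The counts of MXD3 are uncertain, since 40.4% of its exon bases are shared with other genes and the counting of strand is not given in the sources used here. On its own strand it overlaps RAB24, a small GTPase, which had 205 counts with siRNA 1 and 203 with siRNA 2, against 106 in the control. On the opposite strand it overlaps PRELID1, a mitochondrial lipid carrier, which had 1060 and 739 counts with the siRNAs and 1672 in the control. AC006435.1, which covers 12.2% of the exon bases of MNT on the other strand, had 0, 0 and 2 counts.

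MXD4, the remaining MXD protein, had 105 counts with siRNA 1 and 79 with siRNA 2, against 134 in the control. Its ratio of 0.794 with siRNA 1 (0.609 to 1.03) was within counting error and that of 0.574 with siRNA 2 (0.429 to 0.764) was not. MLX had 706 counts with siRNA 1 and 850 with siRNA 2, against 963 in the control, with ratios of 0.743 (0.673 to 0.819) and 0.860 (0.783 to 0.944). MLX shares 18.1% of its exon bases with PSMC3IP, a recombination cofactor on the opposite strand, which had 1203 and 1086 counts with the siRNAs and 565 in the control, so the counts of MLX are uncertain as well.

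These fold changes stand against a trend with base composition that ran through all genes. Tested genes of at least 60% GC in their longest transcript had median log2 fold changes of -1.01 (siRNA 1) and -0.76 (siRNA 2), and those under 40% GC had 0.58 and 0.45. MNT (61.4% GC) had -0.97 and -0.84 with the siRNAs, and -0.08 and -0.17 once the trend was removed. MXD3 (61.3% GC) had -1.48 and -1.34 before removal, and -0.60 and -0.67 after it. For the antagonist genes of low GC the removal lowered the values, to 0.46 and -0.22 for MXD1 (42.7% GC) and to 0.09 and -0.17 for MXI1 (43.7% GC). MYC (53.9% GC) stood at 3.46 and 3.47 after removal and MAX (51.3% GC) at 1.41 and 0.16. After removal 3 members were higher with both siRNAs (MYC, MYCL and MAX), 4 were lower with both (MYCN, MXD3, MNT and MLX) and 3 were mixed. MYC was then the only member at least 2-fold away with both siRNAs, beside 3.35% of all genes higher and 1.40% lower.

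**Figure D2:**
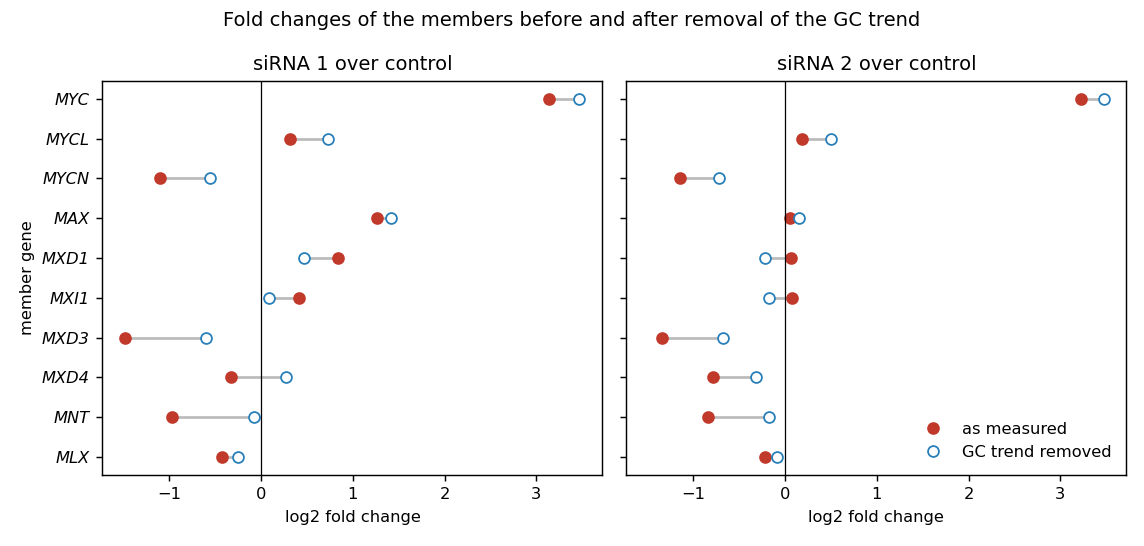
Log2 fold change of each member over the control with siRNA 1 (left panel) and with siRNA 2 (right panel), as measured (filled) and after removal of the trend with GC content (open). MNT stands at -0.97 and -0.84 as measured and at -0.08 and -0.17 after removal, while MYC is above 3 in both panels.

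To compare levels between genes, counts were divided by the bases covered by any exon in GENCODE 29 and by the library total. The authors' FPKM could not serve for this. The length it implies equalled, within 0.1%, the summed length of all distinct annotated exons in 92.2% of 12862 genes with at least 50 counts with siRNA 1, so that bases shared by overlapping exon variants were counted more than once. For MYC that length is 9431 bases, against 3001 bases covered by exons and a gene span of 6001 bases, and for MAX it is 14915 against 4430 bases. The deposited FPKM of MYC was 13.6 with siRNA 1, 15.3 with siRNA 2 and 1.69 in the control, and that of MAX was 3.88, 1.76 and 1.77. Divided instead by the bases covered, as CPM per kilobase of exon, MYC stood at 42.6, 47.9 and 5.32 and MAX at 13.1, 5.93 and 5.97.

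In the control, MLX (12.9 on this scale) was the highest member and MXI1 (7.37) the second. MAX (5.97), MXD3 (5.71), MNT (5.69) and MYC (5.32) followed with counting intervals that overlap. MYCL (3.99), MXD1 (2.32), MXD4 (1.08) and MYCN (0.240) came after them, each below the one before by more than counting error. With either siRNA the order began with MYC. With siRNA 1 it was followed by MAX (13.1), then by MXI1 (8.93) and MLX (8.66), whose intervals overlap. With siRNA 2 MLX (10.6) and MXI1 (7.47) came before MAX (5.93). MXD3 had the eighth place with each siRNA, at 1.85 and 2.15, against the fourth in the control, although its interval overlaps that of MXD1 with siRNA 2, and MXD4 and MYCN were the lowest members in every library.

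**Figure D3:**
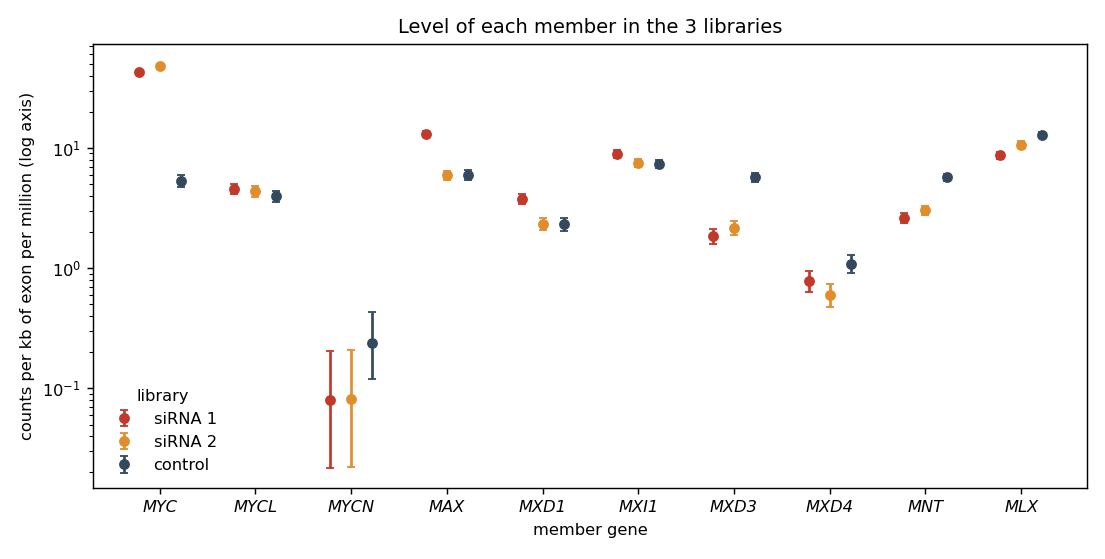
Level of each member in CPM per kilobase of exon (log axis) in the libraries with siRNA 1, siRNA 2 and the control; bars are 95% Poisson intervals, which cover counting error only. MYC lies above all other members in the siRNA libraries, while in the control it sits among MAX, MXD3 and MNT.

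Ratios between members of 1 library do not depend on how the libraries are scaled, although the GC trend still bears on them. MYC stood at 3.27 times the level of MAX with siRNA 1 and 8.08 times with siRNA 2, against 0.892 times in the control. Against MNT it stood at 16.2 times with siRNA 1 and 15.8 times with siRNA 2, against 0.936 times in the control. The 5 antagonists MXD1, MXI1, MXD3, MXD4 and MNT together had 18.0 and 15.6 with the siRNAs and 22.2 in the control, and MYC, MYCN and MYCL together had 47.2 and 52.4 with the siRNAs and 9.55 in the control. The MYC family was thus 2.63 times the summed antagonists with siRNA 1 and 3.36 times with siRNA 2, against 0.431 times in the control. On the deposited FPKM these quotients were 1.64, 2.01 and 0.345, smaller in each library and in the same order.

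**Figure D4:**
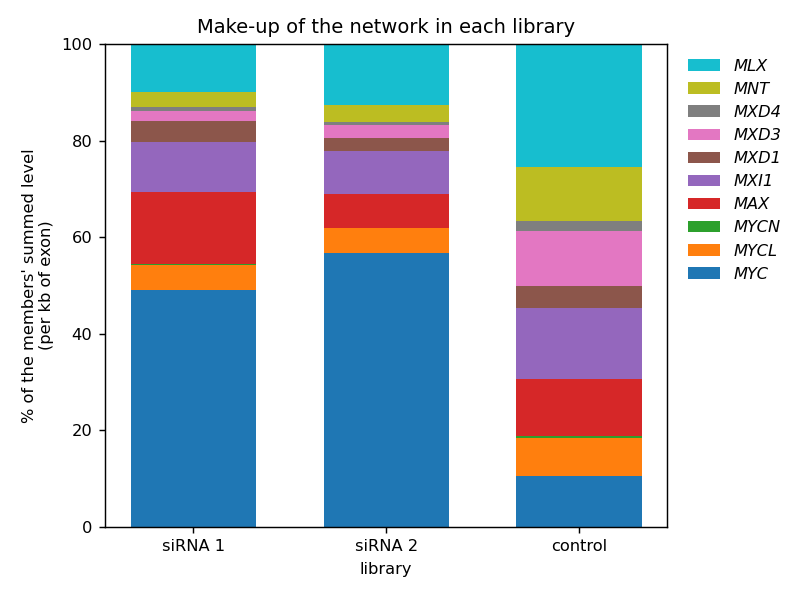
Share of each member in the members' summed level per kilobase of exon, for siRNA 1, siRNA 2 and the control. MYC makes 49.0% with siRNA 1 and 56.7% with siRNA 2, against 10.5% in the control. A larger share of MYC leaves less for the rest, so a smaller share does not by itself show a lower level. Apart from MAX with siRNA 1, every other member has a smaller share in the siRNA libraries. That of MYCL is 5.20% and 5.14% with the siRNAs against 7.89% in the control, although its level is 4.52 and 4.34 against 3.99.

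Promoters were searched for the E-box CACGTG, which reads the same on both strands, in windows from 250 bases before to 50 bases after each start (RefSeq, GRCh38.p14). Of the members, 9 were in the promoter table, which lacked MYC, and MXD4, MNT and MLX held the motif. It occurs in 7.26% of all 35116 windows, and 12.6% of tested genes with a promoter have it in at least 1 window. The sites are shown because these 3 genes are also members that were lower with both siRNAs as measured. MYCN and MXD3 were lower with both as well and did not hold the motif. After removal of the GC trend MXD4 stood at 0.28 and -0.32, MNT at -0.08 and -0.17 and MLX at -0.25 and -0.09. The sites are printed along the gene's strand, with the motif in capitals.
MXD4, chr4:2262327-2262359, minus strand: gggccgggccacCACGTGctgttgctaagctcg
MNT, chr17:2401233-2401268, minus strand: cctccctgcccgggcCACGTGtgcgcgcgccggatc
MLX, chr17:42567035-42567070, plus strand: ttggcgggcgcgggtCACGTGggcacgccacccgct
Counted from the start that the RefSeq promoter table gives, which is not the gene start of GENCODE 29 for these genes, the motif begins at -238 in MXD4, at -193 in MNT and at -50 in MLX. Over the 1369 tested genes with the motif the median log2 fold change was -0.10, against -0.05 for 9500 without it, and after removal of the GC trend it was 0.00 against -0.02. Seed matches of the siRNAs were counted in the part after the stop codon of each gene's longest coding transcript. Of the members, MXD4 and MLX had 1 match each to the seed of siRNA 2, the seed of siRNA 1 had 0 matches in the members, and so had that of the control. Of 13018 tested coding genes 16.3% had a match to the seed of siRNA 2, and their median log2 fold change with siRNA 2 was -0.03, against -0.07 for the other genes.

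The genes around the network were described by 10 lists of 150 genes, of which 145 were tested. None of these 145 passed edgeR's quasi-likelihood test over all genes, where 0.0579% of all tested genes did. Of the 145, 39 had an unadjusted p under 0.05, as did 4496 of all 17263 tested genes. DESeq2 called 5 higher and 3 lower, where it called 3.28% of all tested genes, 1.52% higher and 1.76% lower. EIF4A1 was the list gene at least 2-fold higher with both siRNAs, against 4% of tested genes. Beside the counts given for each list below, 41.9% of all tested genes were higher with both siRNAs and 41.6% lower with both.

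Genes that MYC is known to activate did not share its size of difference. Over the target lists for ribosome biogenesis, nucleotides and polyamines, the cell cycle, translation and chaperones, and metabolism and splicing, 91 genes were tested. Of these 42 were higher with both siRNAs and 38 lower with both, where 41.9% and 41.6% of all tested genes were. Of the 91, 0 passed edgeR, where 0.0579% of all tested genes did. An unadjusted p under 0.05 was found for 28, and for 4496 of all 17263 tested genes. DESeq2 called 6, where it called 3.28% of all tested genes, 1.52% higher and 1.76% lower. Of these NOLC1, AMD1, PAICS, EIF4A1 and HSPD1 were higher and SLC2A1 was lower. The median log2 fold change was 0.02, or 0.07 after removal of the GC trend. For ribosome biogenesis, 11 of 26 were higher with both and 11 lower with both, with a median of 0.04. Among these NOLC1, a nucleolar chaperone, had 7122 and 8901 counts with the siRNAs and 4480 in the control, while BOP1, a factor for the large ribosomal subunit, had 479 and 694 against 1106 and RRP9, a small nucleolar RNP protein, had 402 and 581 against 805. After removal of the trend NOLC1 stood at 0.60 and 0.88, BOP1 at -0.04 and 0.16 and RRP9 at -0.13 and 0.14.

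Of 18 genes for nucleotide and polyamine synthesis 10 were higher with both siRNAs and 6 lower, with a median of 0.10. PAICS, a purine synthesis enzyme, had 7376 and 12774 counts with the siRNAs and 3988 in the control. IMPDH1, which makes guanine nucleotides, had 821 and 1175 against 1833, and passed to -0.16 and 0.06 after removal of the trend. Of 14 cell cycle genes 5 were higher and 5 lower with both, with a median of -0.02 that turned to 0.14 after removal. CKS1B, a CDK subunit, differed between the siRNAs, with 162 counts with siRNA 1 and 842 with siRNA 2, against 764 in the control. CCND3, cyclin D3, had 845 and 877 against 1488, and E2F1, an activator of S phase genes, had 1305 and 1608 against 2059. E2F1 (62.5% GC) stood at -0.64 and -0.39 as measured but at 0.32 and 0.33 after removal, while CCND3 stood at -0.30 and -0.42 and CKS1B at -2.53 and -0.15.

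Of 14 genes for translation and chaperones 9 were higher with both siRNAs and 4 lower, with a median of 0.17. EIF4A1, the RNA helicase of translation initiation, had 2599 and 3823 counts with the siRNAs and 923 in the control, and is uncertain because 48.6% of its exon bases are shared with other genes. EIF5A, an elongation factor, had 4619 and 6179 against 9330, and PHB2, a mitochondrial prohibitin, had 2024 and 2485 against 3901. Of 19 genes for metabolism and splicing 7 were higher and 12 lower with both, with a median of -0.18 and of -0.02 after removal. The glucose transporter SLC2A1 had 10659 and 12758 counts with the siRNAs and 20818 in the control, hexokinase HK2 had 759 and 1041 against 1440, and the amino acid transporter SLC7A5 had 11249 and 14022 against 21358. After removal SLC2A1 stood at -0.55 and -0.44, HK2 at -0.77 and -0.41 and SLC7A5 at -0.04 and 0.01.

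Of 10 genes that MYC is known to repress, 2 were higher with both siRNAs and 8 lower with both, where 41.6% of all tested genes were lower with both. Their median was -0.38, and -0.03 after removal of the trend. GADD45B, a stress-response gene, had 158 and 191 counts with the siRNAs and 348 in the control. CDKN1A, the CDK inhibitor p21, had 2038 and 2379 against 3224, and CDKN1C, the inhibitor p57, had 133 and 82 against 184. After removal GADD45B stood at -0.36 and -0.32, CDKN1A at -0.00 and 0.02 and CDKN1C at 0.61 and -0.39. None of the 10 passed edgeR, where 0.0579% of all tested genes did. An unadjusted p under 0.05 was found for 2, and for 4496 of all 17263 tested genes. DESeq2 called 0 of the 10, where it called 3.28% of all tested genes. Of 6 tested genes that MLX regulates with MLXIP or MLXIPL, 2 were higher and 3 lower with both, with a median of -0.00. FASN, fatty acid synthase, had 2605 and 3802 counts with the siRNAs and 6738 in the control and stood at -0.20 and 0.01 after removal. ARRDC4, an arrestin that responds to glucose, had 335 and 275 against 254, and KLF10 had 1245 and 2099 against 1220. After removal ARRDC4 stood at 0.07 and -0.19 and KLF10 at -0.08 and 0.64.

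**Figure D5:**
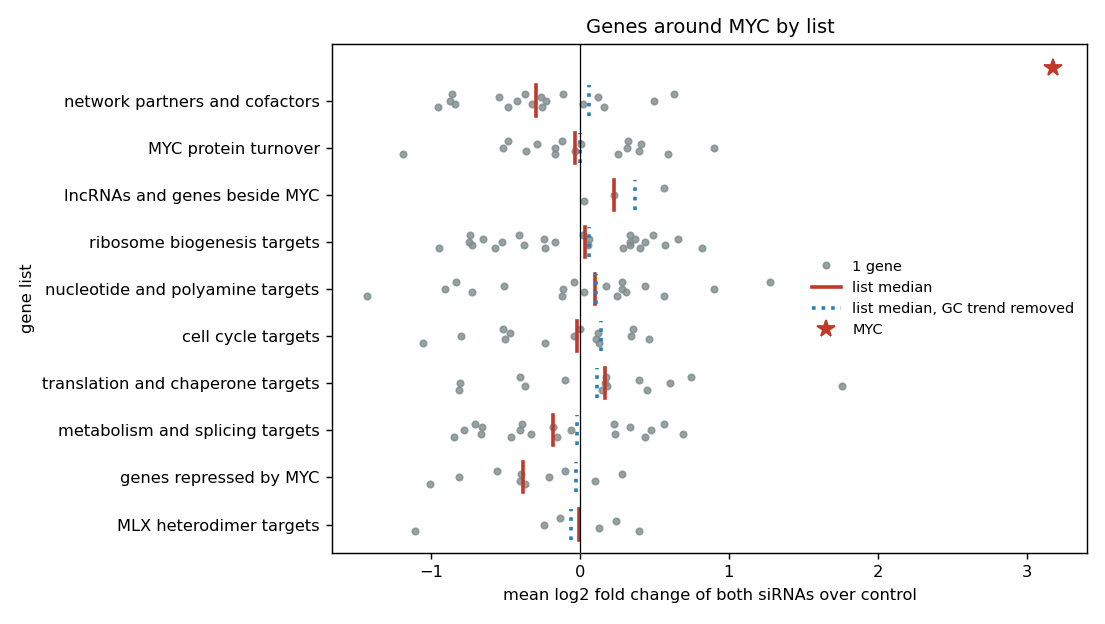
Mean log2 fold change of both siRNAs over the control for each tested gene (grey) of 10 lists, with the list median as measured (red) and after removal of the GC trend (blue, dotted); the star is MYC. The list medians lie between -0.38 and 0.23, while MYC is at 3.18.

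Among 18 partners and cofactors of the network 4 were higher with both siRNAs and 13 lower with both, where 41.9% and 41.6% of all tested genes were. Their median of -0.29 turned to 0.06 after removal of the trend, in a list whose median GC was 55.9% against 48.5% for all tested genes. RUVBL2, an ATPase of chromatin complexes that MYC recruits, had 1429 and 1974 counts with the siRNAs and 3235 in the control. KAT2A, an acetyltransferase, had 842 and 1009 against 1675, and ZBTB17, the MYC partner MIZ1, had 242 and 277 against 468. After removal RUVBL2 stood at -0.37 and -0.15, KAT2A at -0.20 and -0.18 and ZBTB17 at 0.02 and -0.07. Among 17 genes that govern the stability of MYC protein 7 were higher with both and 6 lower with both, with a median of -0.03. SKP2, an F-box protein, had 1035 and 1090 counts with the siRNAs and 563 in the control, and CIP2A, an inhibitor of the phosphatase that destabilises MYC, had 1043 and 1103 against 705. After removal SKP2 stood at 0.46 and 0.58 and CIP2A at -0.09 and 0.09.

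The transcripts beside MYC on chromosome 8 did not follow it in size. PVT1, a long noncoding RNA whose locus lies downstream of MYC, had 523 counts with siRNA 1 and 519 with siRNA 2, against 441 in the control, which are log2 fold changes of 0.26 and 0.20. CASC11, the long noncoding RNA just upstream, had 18, 17 and 17 counts with siRNA 1, with siRNA 2 and in the control, and CASC8 had 18, 14 and 10. CASC19, PCAT1 and POU5F1B had at most 9 counts in a library and were not tested.

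By the Euclidean distance between the pairs of log2 fold changes, over 3 libraries and 13616 genes with at least 50 counts, the 8 genes nearest to MYC were SOCS6, TGIF2-RAB5IF, LRRC37A17P, AC022400.6, ZNF791, RPS15AP38, AC092070.2 and AL096870.2. The nearest, SOCS6, a suppressor of cytokine signalling, had 449 counts with siRNA 1 and 435 with siRNA 2, against 41 in the control (distance 0.290). ZNF791, a zinc-finger gene, had 938 and 908 counts against 122 (distance 0.429). Of these genes SOCS6, ZNF791, RPS15AP38 and AC092070.2 share no exon bases with another gene. RPS15AP38 and AC092070.2 are annotated as pseudogenes and had 33 and 5 counts in the control. The handling of reads with several matches is not given, so the counts of both pseudogenes are uncertain. In TGIF2-RAB5IF, LRRC37A17P, AC022400.6 and AL096870.2 between 35.4% and 99.9% of exon bases are shared, so their counts are uncertain as well.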

How the data were processed

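Per the labels' protocols, libraries were made from 1 ug of total RNA with the TruSeq RNA kit. The authors deposited raw read counts per gene and FPKM values for 3 libraries. Bowtie 0.12.2 is a tool in the submitters' processing notes, which list mm8 beside GRCh38 without saying what each build served for. For the counting program, its use of strand and reads with several matches, the step is not given in the sources used here. Gene coordinates equal those of GENCODE 29 (GRCh38) for 96.0% of the 12862 genes checked.

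The siRNA libraries were taken as a group of 2 against 1 control library. The counts were fitted with edgeR 4.0.16 (R 4.3.3; TMM, filterByExpr with a minimum count of 10, quasi-likelihood test, residual degrees of freedom 1, Benjamini-Hochberg at 0.05), and this was tested on simulated data. Each siRNA's fold change is a difference of log2 CPM (prior count 2). Ratios carry 95% exact binomial intervals and levels Poisson intervals, for counting error alone, because the reads have no molecular identifiers and need not be separate molecules. The GC trend was a lowess fit (fraction 0.3) on the GC of the longest transcript. DESeq2 1.42.0 on the counts and limma 3.58.1 on log2 FPKM were alternatives.

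Members and lists were chosen with earlier results of these data known. Named are all members, from each list the 3 genes furthest from 0 among those of at least 50 counts, the 8 genes nearest to MYC, genes that overlap a member, and DUOX2. Other genes were chosen after their values were seen. CCAT1, a list gene, was not analysed here, and some genes that the rule names are not reported here.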

Additional observations from a re-analysis of the deposited data

How the results depend on the processing

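No paired analysis was possible because the control group had 1 library, whose label carries no number. The 10 edgeR calls were 10 with DESeq2 size factors and 9 with total count scaling, where MYC was no longer among them, and 567 with DESeq2, where MYC and MXD3 were. They were 0 without a filter (3938 genes with an unadjusted p under 0.05), 0 among genes that reach 1 CPM in all 3 libraries (4050), 0 with the GC trend removed (1747), and 0 with limma on log2(FPKM + 1) (4282) or log2(FPKM + 0.1) (4010). The 1562 genes at least 2-fold away with both siRNAs (691 higher, 871 lower) were 2664 without a filter, 900 among genes that reach 1 CPM in all 3 libraries, 817 with the GC trend removed (576 higher, 241 lower) and 431 among coding genes without exon overlap. Counted with 1 siRNA left out they were between 2311 and 3523. The log2 fold change of MYC was 3.18 as reported, 3.08 with total count scaling, 2.51 on log2(FPKM + 1), 3.01 on log2(FPKM + 0.1) and 3.47 with the GC trend removed, and between 3.13 and 3.22 with 1 siRNA left out. Total count scaling lowered the median of all genes by 0.13 with siRNA 1 and by 0.06 with siRNA 2. Among the other members the mean fold change of MXI1 changed sign, to -0.04 with the GC trend removed. Among the lists, partners and cofactors turned to 0.06 and cell cycle targets to 0.14 with the trend removed. Ribosome biogenesis targets turned to -0.06 with total count scaling and to -0.07 with siRNA 1 alone, and with siRNA 2 alone MYC protein turnover and cell cycle targets each turned to 0.06. The cause of these differences was not tested. There was a single control library, and MYCN had few reads.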

Other observations

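Some further transcripts linked to MYC by name were looked up after the members' values had been seen. MYCBP, which encodes a small MYC-binding protein, had 1281 counts with siRNA 1 and 898 with siRNA 2, against 627 in the control, so that, as for MAX and MXD1, the siRNA 1 library was the highest of the 3. On the log2 scale MYCBP stood at 1.05 and 0.48, or at 0.74 and 0.24 with the GC trend removed. MYCBP2, a large ubiquitin ligase, had 3986 and 3762 counts with the siRNAs and 3042 in the control. These are 0.41 and 0.27 on the log2 scale, or 0.08 and 0.01 with the GC trend removed. MAZ, a zinc-finger factor first found at the MYC promoter, had 536 and 609 counts with the siRNAs and 985 in the control, which are -0.86 and -0.73 on the log2 scale, or 0.34 and 0.17 with the GC trend removed. MINCR, a long noncoding RNA named for its induction by MYC, had 54 counts with each siRNA and 51 in the control.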
